A study of Rattus norvegicus with 6 samples.

Results

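In all, 10 genes were followed in the supraspinatus muscle of rats, 8 with lower and 2 with higher transcript levels after ultrasound treatment of an injured rotator cuff. They are 10 of the 32623 Ensembl gene identifiers in the deposited table. They were chosen by their measured levels in these same samples, because the 3 ultrasound values of each lay on one side of its 3 control values. The differences between the groups are therefore described below without a test, and the separation of the groups is no finding in these genes.

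Both groups carried a rotator cuff injury, were labelled WT and stood at 6 weeks. The 3 ultrasound samples came from rats treated with a flexible, tissue-adaptive ultrasound patch (TA-FUP) in sessions of 10 min, 3 times per week, and the 3 control samples from rats with the injury and no ultrasound. No uninjured muscle was among the 6 samples. Strain, age and the number of animals behind a sample are not stated in the labels, so the spread between samples of a group may be technical in part.

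The supraspinatus is one of the muscles that make up the rotator cuff and helps to lift the arm or forelimb. When its tendon is torn, the muscle is unloaded, and it is known to lose fibre mass and to gain fat and connective tissue. Therapeutic ultrasound passes pressure waves into tissue and acts on it mechanically and, at some settings, by heat. In bulk muscle RNA a lower transcript level can come from fewer cells of a type or from less RNA per cell, and these cannot be told apart here.

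The identifiers were not paired with gene symbols, because the reference gene table used here held an Ensembl identifier in 0 of its rows. The roles, positions and sequences of the 10 genes are for that reason not given, and the labelled tissue was not checked against muscle markers. Levels are in FPKM, fragments scaled by the length of the gene and the size of the library, so levels of different genes can be set side by side per length. Differences are of log2(FPKM + 1), ultrasound mean minus control mean, with the standard error from limma.

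Among the 8 lower genes, 2 were close to 0 with ultrasound. ENSRNOG00000051024 had 0.295, 0.145 and 0.0356 FPKM in ultrasound 1, 2 and 3, and 10.9, 14.5 and 16.2 FPKM in control 1, 2 and 3. All 3 controls were far above all 3 ultrasound samples, whose own values spread widely. The group means differed 87.6-fold (0.159 ± 0.130 against 13.9 ± 2.70 FPKM, SD, n = 3 each), and 154-fold without ultrasound 1, so the fold is known only roughly. The nearest pair of samples, ultrasound 1 and control 1, still differed 37.0-fold.

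ENSRNOG00000057517 showed the same kind of difference at a lower control level. Its values were 0.134, 0.0955 and 0.269 FPKM with ultrasound and 3.69, 4.41 and 4.51 FPKM in controls, a 25.3-fold difference between the means. The 3 controls lay close together, with a coefficient of variation of 10.7%, while the low ultrasound values varied by 55.0%. Both genes were under 1 FPKM in every ultrasound sample and passed the filter, a mean of 1 FPKM over the 6 samples, only through their controls. At such levels the size of the log2 difference rests on the pseudocount. With 0.1 FPKM in place of 1 FPKM, the difference of ENSRNOG00000051024 went from -3.67 to -5.87 and that of ENSRNOG00000057517 from -2.16 to -4.06.

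**Figure D1:**
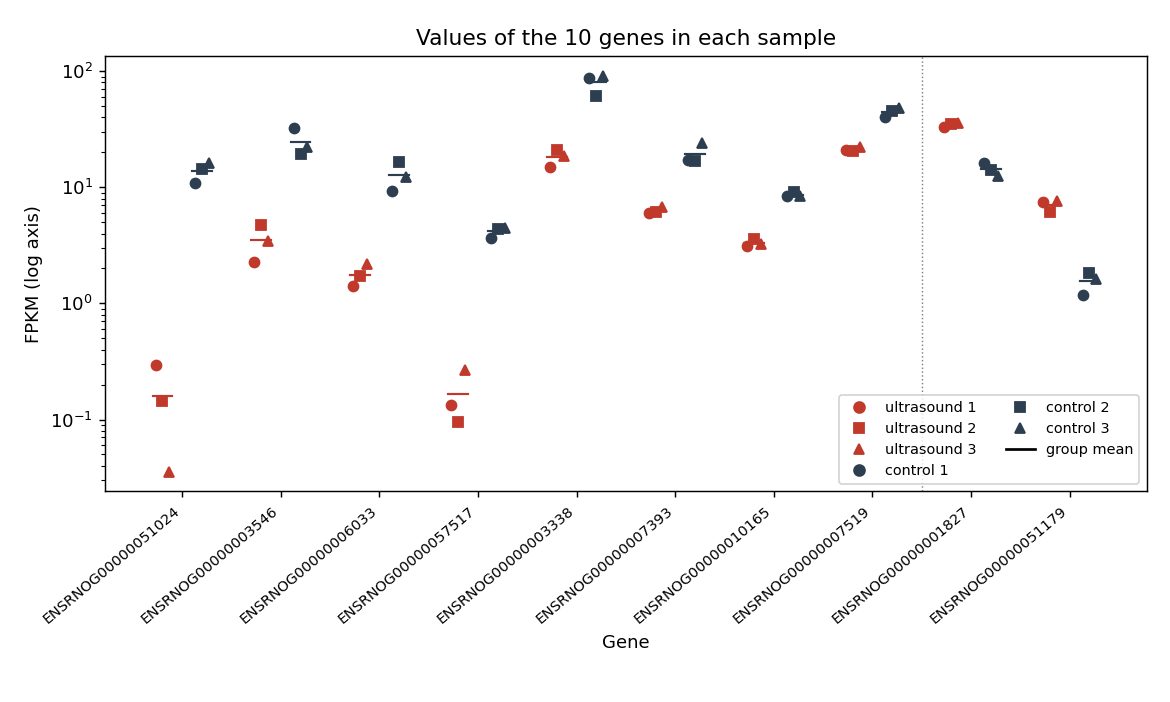
FPKM of the 10 genes in each of the 6 samples on a log axis, with ultrasound in red, control in dark blue, the symbol giving the replicate number and a bar at each group mean. The 8 genes left of the dotted line are lower with ultrasound, the 2 right of it higher, and ENSRNOG00000051024 and ENSRNOG00000057517 lie under 1 FPKM in all 3 ultrasound samples.

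A further 3 genes were several-fold lower with ultrasound while still present in treated muscle. ENSRNOG00000003338, the most abundant of the 10 in controls, had 15.0, 20.9 and 18.6 FPKM with ultrasound and 87.5, 61.8 and 91.1 FPKM in controls. Its means were 18.2 ± 3.01 and 80.1 ± 16.0 FPKM (SD, n = 3 each), a 4.41-fold difference. Control 2 was the low control here, and even so it lay 2.95-fold above the highest ultrasound sample.

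ENSRNOG00000003546 had 2.27, 4.78 and 3.47 FPKM with ultrasound and 32.1, 19.3 and 22.1 FPKM in controls. It was the one lower gene in which control 1 was the highest control. Its means differed 6.99-fold, and its log2 difference of -2.51 had the largest standard error of the 10, 0.26. ENSRNOG00000006033 had 1.42, 1.72 and 2.18 FPKM with ultrasound against 9.27, 16.6 and 12.3 FPKM in controls, a 7.17-fold difference. In this gene control 1 was the lowest control, so the 2 genes of like fold ordered their controls differently.

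The remaining 3 lower genes differed 2.09- to 3.09-fold, and their ultrasound samples lay close together, with coefficients of variation from 3.68 to 6.79%. ENSRNOG00000007393 had 6.00, 6.07 and 6.71 FPKM with ultrasound and 17.1, 17.0 and 23.9 FPKM in controls. Its controls 1 and 2 were nearly equal and control 3 stood above them. ENSRNOG00000010165 had 3.15, 3.58 and 3.26 FPKM with ultrasound and 8.38, 9.13 and 8.45 FPKM in controls. Its coefficients of variation were 6.79% with ultrasound and 4.80% in controls, and the latter was the lowest among controls over the 10 genes. ENSRNOG00000007519 had 21.2, 20.6 and 22.2 FPKM with ultrasound and 40.2, 45.1 and 48.6 FPKM in controls. Its 2.09-fold difference was the smallest of the 10, and its ultrasound samples, with a coefficient of variation of 3.68%, agreed more closely than those of the other 9 genes.

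Both higher genes were measurable in every control. ENSRNOG00000051179 had 7.50, 6.09 and 7.65 FPKM with ultrasound and 1.19, 1.81 and 1.64 FPKM in controls, a 4.58-fold difference between the means of 7.08 ± 0.859 and 1.55 ± 0.323 FPKM (SD, n = 3 each). The ultrasound samples lay at least 3.36-fold above the highest control. ENSRNOG00000001827 had 32.9, 35.3 and 35.5 FPKM with ultrasound and 16.3, 14.0 and 12.4 FPKM in controls, a 2.43-fold difference. Control 1 was its highest control and control 3 its lowest, and the nearest samples of the groups, ultrasound 1 and control 1, were 2.02-fold apart.

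The order of the 10 levels changed between the groups. In controls the order of the means, from the top, was ENSRNOG00000003338, ENSRNOG00000007519, ENSRNOG00000003546, ENSRNOG00000007393, ENSRNOG00000001827, ENSRNOG00000051024, ENSRNOG00000006033, ENSRNOG00000010165, ENSRNOG00000057517 and ENSRNOG00000051179. Within it the sample ranges overlapped between ENSRNOG00000003546 and ENSRNOG00000007393, and among ENSRNOG00000001827, ENSRNOG00000051024 and ENSRNOG00000006033, so those neighbours are not ordered beyond their spread. With ultrasound ENSRNOG00000001827 stood first, clear of the others at 34.6 ± 1.47 FPKM (SD, n = 3). ENSRNOG00000007519 and ENSRNOG00000003338 followed with overlapping ranges, then ENSRNOG00000051179 and ENSRNOG00000007393, whose ranges overlapped too. ENSRNOG00000003546 and ENSRNOG00000010165 came next, again with overlap, and ENSRNOG00000006033 lay under both at 1.77 ± 0.383 FPKM. ENSRNOG00000057517 and ENSRNOG00000051024 were last and overlapped.

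On the log2 scale, the 8 lower genes ran from -3.67 to -1.03 with a median of -2.11, while the median over all 11767 tested genes was -0.26. The higher genes stood at 1.67 (standard error 0.15) for ENSRNOG00000051179 and 1.23 (standard error 0.12) for ENSRNOG00000001827. Relative to the median of all genes, the lower genes ran from -3.41 to -0.76 and the higher genes were at 1.49 (ENSRNOG00000001827) and 1.93 (ENSRNOG00000051179), an order kept in the values that follow. Median-of-ratios scaling, which levels a shift shared by most genes, moved the median of all genes to 0.05. Under it the lower genes ran from -3.46 to -0.66 and the higher genes were at 1.59 and 1.95. With quantile normalization, the median of all genes was 0.12, the lower genes ran from -3.16 to -0.72, and the higher genes were at 1.53 and 2.10.

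Groups that do not overlap were common in this comparison. The pattern was seen in 36.5% of tested genes in the lower direction and in 4.14% in the higher direction, and the 10 genes were picked for it, so nothing is read from their number. The balance between the directions depended on the scaling: 4295 genes lower and 487 higher as deposited became 2213 and 2640 with median-of-ratios scaling, and 1763 and 3120 with quantile normalization. A log2 difference of -1 or below together with separate groups was found in 1102 genes, 9.37% of those tested, of which the 8 lower genes are 8. A difference of 1 or above with separate groups was found in 9 genes, 0.0765%, of which the 2 higher genes are 2.

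By size alone the lower genes were not the extreme of the table. ENSRNOG00000051024 had the 16th most negative log2 difference, ENSRNOG00000003546 the 99th, ENSRNOG00000057517 the 165th and ENSRNOG00000007519 the 1282nd. Ordered instead by the gap on the log2 scale between the nearest samples of the groups, ENSRNOG00000051024 was number 2, with a gap of 3.20, ENSRNOG00000057517 number 11, ENSRNOG00000003546 number 12 and ENSRNOG00000006033 number 16. ENSRNOG00000007519, with a gap of 0.83, was number 149. Among genes higher with ultrasound, ENSRNOG00000051179 had the widest gap, 1.33, and the 4th largest difference, and ENSRNOG00000001827 the third gap, 0.97, and the 6th largest difference. The gap measures the separation of the groups for which these genes were picked, so nothing is read from their ranks by gap.

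**Figure D2:**
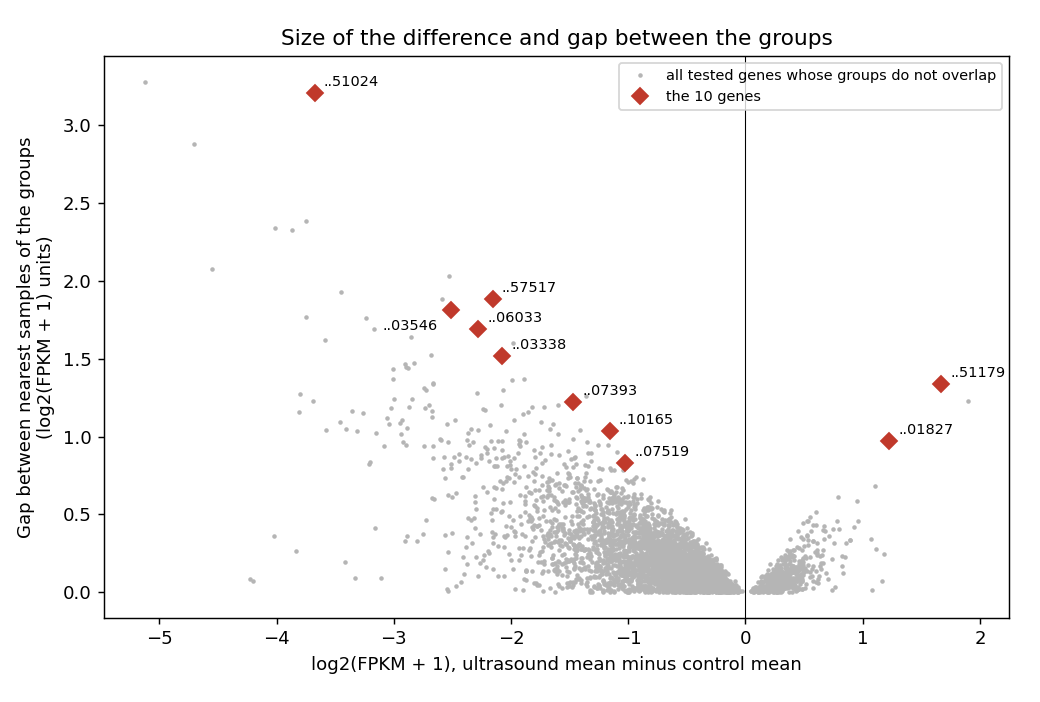
Each point is a tested gene whose groups do not overlap, placed by its log2(FPKM + 1) difference, ultrasound mean minus control mean, and by the gap between the nearest samples of the groups in the same units. The 10 genes, red diamonds named by the last digits of their identifiers, lie on the upper edge of the cloud, where the gap is wide for the size of the difference, with ENSRNOG00000051024 at a gap of 3.20. They were picked for the separation of their groups, so this position is no finding.

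All 10 genes were among the 13 that passed limma's Benjamini-Hochberg adjusted threshold of 0.05 over the whole table, 11 lower (0.0935% of tested genes) and 2 higher (0.0170%). The other 3, all lower with ultrasound, were ENSRNOG00000001414, ENSRNOG00000002946 and ENSRNOG00000019568. Since this is the contrast from which the 10 genes were picked, the count adds no support to them. The calls changed when 1 sample was left out, and the cause was not tested. Without ultrasound 1, 2 or 3 limma called 1, 0 and 0 of the 10 genes, without control 2 or 3 it called 6 and 1, and without control 1 all 10, together with 6103 other genes. All 60 log2 differences of the 10 genes with 1 sample left out moved by less than the spread between replicates. With 3 samples per group a larger move was not possible by this measure, so nothing is read from that count. For ENSRNOG00000051024 the differences with 1 sample left out ran from -3.82 to -3.56.

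On the log2 scale, control samples varied more than ultrasound samples in most genes, and control 1 lay nearest to the treated muscle in most genes. Measured from the mean of the treated samples on the log2 scale, control 1 was at the shortest distance in 72.4% of tested genes and in 6 of these 10. Among the 8 lower genes control 1 was the lowest control in 5, control 2 in 3 and control 3 in 0. Control 1 still lay apart from the ultrasound samples in all 10, the pattern for which they were picked. Without it the lower genes ran from -3.82 to -1.10 and the higher genes were at 1.32 and 1.56. The standard deviation on the log2 scale was larger among controls than among ultrasound samples in 8 of the 10 genes and in 69.2% of all tested genes. The exceptions on that scale were ENSRNOG00000003546 and ENSRNOG00000010165. In ENSRNOG00000051024 and ENSRNOG00000057517 the pseudocount of 1 FPKM narrows the spread of the low ultrasound values. Their coefficients of variation were larger with ultrasound, 82.3% and 55.0%, than in controls, 19.4% and 10.7%.

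Other properties of the libraries moved with the groups. The 100 most abundant genes held 65.1 to 68.9% of all FPKM in the ultrasound samples, 64.2% in control 1, and 57.3% and 55.0% in controls 2 and 3. Between 10644 and 11058 genes reached 1 FPKM with ultrasound, and between 11252 and 12583 in controls. Depth relative to ultrasound 1, read from the spacing of low values, was 0.974 to 1.04 in the other ultrasound samples and 0.920 to 1.13 in controls. By this estimate the groups overlapped in depth. It rests on few genes, from 50 in control 3 to 93 in ultrasound 2, and has no measure of error. Absolute depth is not given, and no counting interval could be set on the low values of ENSRNOG00000051024 and ENSRNOG00000057517. After taking out those 100 genes and rescaling what remained, the lower genes ran from -3.54 to -0.78 and the higher genes were at 1.47 and 1.86.

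**Figure D3:**
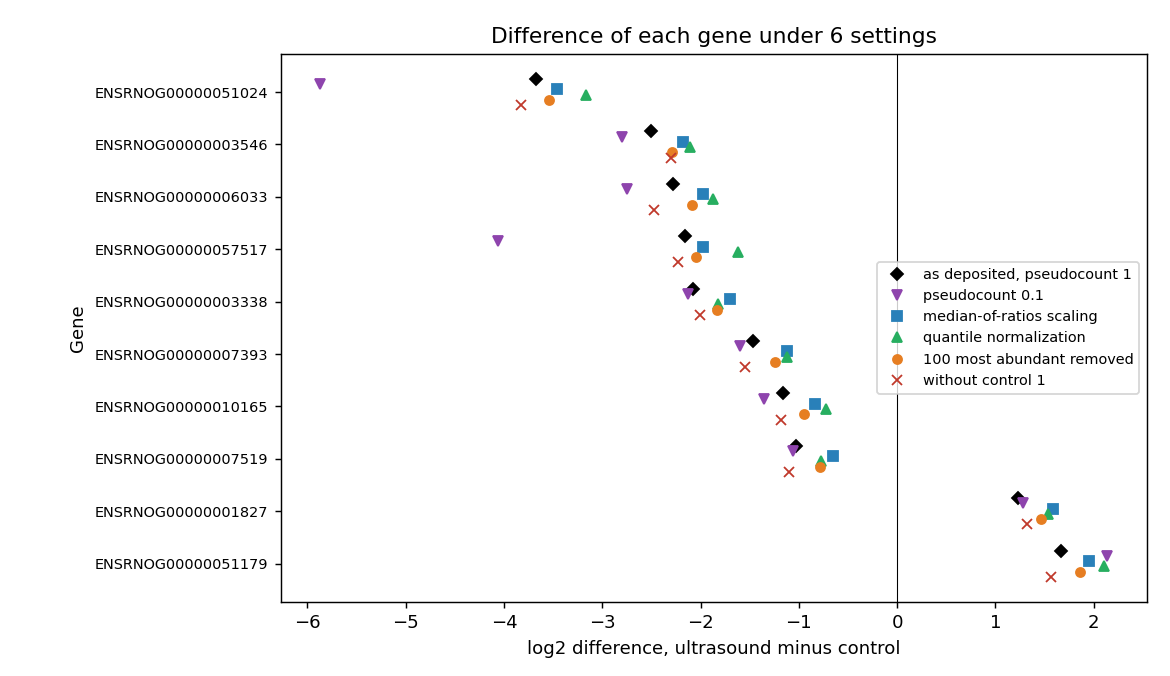
Log2 difference, ultrasound minus control, of each of the 10 genes (rows) under 6 settings (symbols). The 8 lower genes stay left of 0 and the 2 higher genes right of it, and the widest moves are those of ENSRNOG00000051024 and ENSRNOG00000057517 with a pseudocount of 0.1 FPKM, to -5.87 and -4.06.

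The genes most like each of the 10 over the 6 samples were taken by Pearson's r of log2(FPKM + 1), as a description. The difference between the groups sets most of this r, and a high r was not rare. At 0.95 or above there were 577 genes for ENSRNOG00000007519, 4.90% of those tested, 264 for ENSRNOG00000051024 and 30 for ENSRNOG00000051179, 0.255%. Closest to ENSRNOG00000051024 was ENSRNOG00000019568 (r = 0.998, n = 6 samples), with 24.5 ± 1.22 FPKM with ultrasound and 64.6 ± 3.64 FPKM in controls. Its log2 difference was -1.36, against -3.67 for ENSRNOG00000051024.

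For each of the 10, the closest gene differed less between the groups on the log2 scale than the gene it resembled. Pearson's r takes no account of the size of a difference, so nothing is read from this. The 2nd closest gene of ENSRNOG00000007519, ENSRNOG00000001414 (r = 0.997, n = 6 samples), differed more, at -2.53 against -1.03. Nearest to ENSRNOG00000057517 was ENSRNOG00000001426 (r = 0.999, n = 6 samples), with 3.74 ± 0.0546 FPKM with ultrasound and 4.89 ± 0.0742 FPKM in controls. For ENSRNOG00000006033 it was ENSRNOG00000056233 (r = 0.999, n = 6 samples), at 9.75 ± 0.263 and 14.3 ± 1.02 FPKM. Of the higher genes, ENSRNOG00000001827 was closest to ENSRNOG00000017836 (r = 0.993, n = 6 samples), at 41.7 ± 0.959 FPKM with ultrasound and 28.2 ± 0.629 FPKM in controls. ENSRNOG00000051179 was closest to ENSRNOG00000010919 (r = 0.988, n = 6 samples), at 3.99 ± 0.0280 and 2.29 ± 0.249 FPKM. For all 10 genes, neither of the 2 most alike genes was another of the 10.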

How the data were processed

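The authors deposited 1 table of FPKM for 6 samples with 32623 rat Ensembl identifiers. The labels' protocols name TRIzol extraction, oligo(dT) enrichment of mRNA and paired-end reads. The build was mRatBN 7.2, per the submitters' processing notes. Aligner, counting tool, annotation release and filters were not given in the sources used here. Each column carries the library name of 1 sample's description, and 0 columns were left over. Count models need counts, and none was run on the FPKM. FPKM are relative within a library: a larger share of a few genes lowers all others.

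Here log2(FPKM + 1) was fitted with limma 3.58.1 under R 4.3.3 for 11767 genes, those averaging 1 FPKM or more over the samples, using a variance trend, no covariate and Benjamini-Hochberg adjustment over all of them. The step was tested on simulated data, with independent noise per gene and changes planted only in genes of higher level. That simulation held no shift shared by the genes of a sample and no changed gene at a low level. The 10 genes, the tests and the lists were chosen with earlier results of these data known. All 10 genes are named, with the 2 most correlated genes of each computed. Lists of muscle and other cell type markers were not used, since 0 identifiers had a symbol. Relative depth is the most frequent ratio of values under 0.1 FPKM between 2 samples. Alternatives covered pseudocount, filter, scaling, variance trend, a replicate block and leaving out each sample. Replicate numbers were not taken as pairs.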

Additional observations from a re-analysis of the deposited data

How the results depend on the processing

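All 10 genes kept the direction of their difference in each of the 18 alternative settings run, 180 values in all, but they were picked for separate groups, so this is no sign of stability. Of the 180 values, 49 moved by more than the spread between replicates, all under another pseudocount or scaling. No other setting could give such a move. Filter, variance trend and replicate block leave the log2 differences unchanged. Leaving out 1 sample alone always moves a difference by less than that spread. The count of 13 called genes (limma, 11 lower) was 23 with a pseudocount of 0.1 FPKM, 4 with no filter on low values (2 of the 10 genes among them), and 23 with median-of-ratios scaling, where 69.6% were lower against 84.6%. It was 17 with quantile normalization, 70.6% of them lower. Of the 10 genes, 6 were called under each of these scalings and 6 without the variance trend. With 1 sample left out, the count ranged from 0 to 6113, the lowest without ultrasound 2 or ultrasound 3, when 2676 and 3685 genes had an unadjusted limma p under 0.05, and the highest without control 1. Settings added after seeing the data gave 21 genes with the 100 most abundant genes removed, and, without control 1, 6081 after median-of-ratios scaling and 6364 after quantile normalization. The 4782 genes with separate groups numbered 5090 to 8458 with 1 sample left out, and without control 1 they were 8465 and 8743 under those scalings. The higher direction held 10.2% of them as deposited, 54.4% after median-of-ratios scaling and 63.9% after quantile normalization. The cause of these moves was not tested. The replicate block gave 933 called genes, all 10 among them. Deviations from the group mean correlated between ultrasound and control samples of the same number at 0.23, -0.0064 and 0.18. Ultrasound 1 correlated best with control 1, and ultrasound 3 with control 3, where control 2 was close at 0.17. Ultrasound 2 had only small values, from -0.0096 with control 1 to 0.022 with control 3, so its best match tells little. These correlations cannot decide whether samples of the same number belong together, and the main fit used no pairing.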
